A study of Homo sapiens with 6 samples.

Results

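Proteasome subunit genes were examined in RKO cells, a long-established line from a human colorectal carcinoma, after knockdown of TRMT6. The set was chosen by symbol: PSMA1 to PSMA7, PSMB1 to PSMB7, PSMC1 to PSMC6, PSMD1 to PSMD14, PSME1 to PSME4, PSMG1 to PSMG4 and ADRM1, without pseudogenes. All 43 symbols were found among the 20289 genes of the deposited table. RNA sequencing compared RKO cells with a control short hairpin RNA, labelled wild type (shControl, n = 3 libraries), with RKO cells carrying a hairpin against TRMT6 (shTRMT6, n = 3). No other treatment or allele is given in the labels. The sources used here do not state the hairpins' sequences or whether a line was 1 clone or a pool. TRMT6 is the partner of the methyltransferase TRMT61A, which makes 1-methyladenosine in tRNA. Histone biosynthesis is named in the title of the study.

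The proteasome degrades proteins that carry ubiquitin chains. Its core particle is a barrel of outer alpha rings, which form the gate, and inner beta rings, which hold the proteolytic sites. The regulatory particle caps the barrel: its ATPase ring unfolds substrates and its lid removes ubiquitin. Other caps (activators) open the gate without ATP, and assembly chaperones build the rings. In proteasome-inhibited cells the transcription factor NFE2L1 induces most subunit genes together.

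TRMT6 read 14.43, 17.96 and 16.85 in the shControl libraries, against 1.58, 1.73 and 1.09 FPKM in shTRMT6, so every shTRMT6 library lay below every shControl library. FPKM divides the fragments of a gene by its length and by the size of the library. Depth, estimated from the steps between low values, was roughly 21.1 to 28.2 M (mega) fragments in shControl and 18.1 to 20.6 M in shTRMT6. The steps fitted poorly in shControl replicate 2 (27.4 M), with a mean cosine of 0.12, where 1 would be a perfect fit. The other libraries gave 0.301 to 0.441, so a difference in depth between the groups is uncertain. Of 8 colorectal epithelial markers, KRT19, KRT20, CDH1 and VIL1 were listed at 0 in all 6 libraries, and KRT18, EPCAM, KRT8 and CDX2 were detected. The summed level of the 8 was 123.6 to 156.1 FPKM in shControl and 201 to 213.6 FPKM in shTRMT6, and KRT18 and EPCAM passed the test as higher. The EPCAM call was lost with all genes kept (adjusted p = 0.111), and on leaving out shControl replicate 1 (0.0863) or shTRMT6 replicate 2 (0.114) or 3 (0.0696). The markers of blood (4), fibroblast (4) and endothelial (3) cells summed to at most 0.36, 1.21 and 0.17 FPKM in any library. In bulk libraries, fewer cells of a type and less RNA per cell cannot be told apart.

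Of the 43 proteasome genes, 17 passed the test as higher, 1 (PSMG4) as lower, and 25 did not pass. The share called higher was 39.5%, against 19.3% of all 10592 genes tested, and the share called lower was 2.33%, against 16.1%. The test was limma on log2(FPKM + 1) with Benjamini-Hochberg adjustment over all genes tested and a threshold of 0.05. All 43 genes had a mean of at least 1 FPKM and were therefore tested. The median log2 fold change was 0.23, against 0.024 over all genes tested, and 35 of 43 fold changes were above 0. The groups did not overlap for 23 genes that were higher and 1 that was lower, where all genes tested gave 26.2% and 22.1%. The genes called higher went from 1.19-fold (PSMD4) to 1.67-fold (PSMC6) in the ratio of mean FPKM. With replicate numbers taken as pairs, a fit with a replicate block called 24 genes higher (25.5% of all genes tested were) and 1 lower (21.3%). By pair, shTRMT6 was higher in all 3 pairs for 29 genes and lower in all 3 for 4. No share of all genes tested was computed for these pair counts. The count of genes called higher was 10 when shTRMT6 replicate 1 was left out (12.2% of all genes) and 8 when replicate 2 was (12.1%), and PSMG4 was not called without shControl replicate 3. Called in every one of 16 alternative settings were 7 genes: PSMA2, PSMA3, PSMC1, PSMC6, PSMD12, PSMD14 and PSMD10. After a correction for transcript GC content their log2 fold changes were smaller by over 1.5 times for PSMA3 (0.65 to 0.40), PSMD12 (0.52 to 0.29), PSMD14 (0.60 to 0.31) and PSMD10 (0.50 to 0.30). They were also smaller for PSMA2 (0.63 to 0.42) and PSMC6 (0.72 to 0.49), but not for PSMC1 (0.57 to 0.59).

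**Figure D1:**
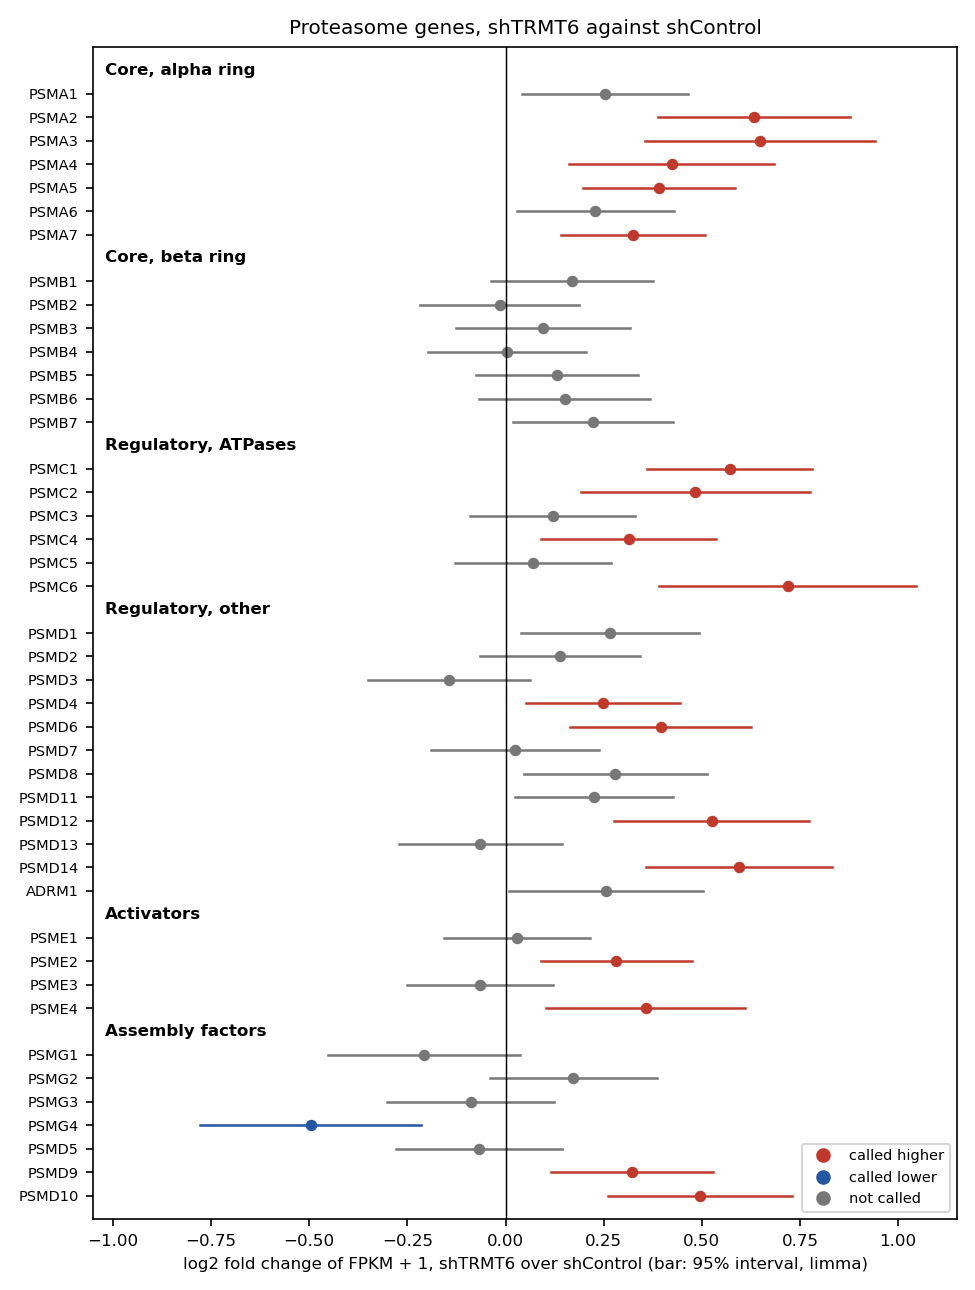
Fold change of each of the 43 proteasome genes by role. The x axis is the log2 fold change of FPKM + 1 in shTRMT6 over shControl from limma; points are estimates, bars 95% intervals, and colour the call. The highest estimate was that of PSMC6 (0.72) and the lowest that of PSMG4 (-0.50), and no beta ring gene was called.

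Since the genes moved mostly in 1 direction, their promoters were searched for the core of the antioxidant response element that NFE2L1 recognises (TGACNNNGC) and for the box bound by NF-Y (CCAAT), on both strands. The windows, 250 bases before to 50 after each RefSeq start on GRCh38.p14, were found for 37 of the 43 genes; PSMA7, PSMB1, PSMB6, PSMB7, PSMD4 and PSMG3 had none. The element core was present in 15 of the 37 genes (40.5%), against 19.6% of 8670 tested genes with a window. Among windows (a gene can have several), 35.6% of the 45 proteasome windows held it, against 13.4% of all 35116 RefSeq windows of that length. The NF-Y box was present in 19 of 37 genes (51.4%), against 43.8% of tested genes. By window, 44.4% of the proteasome windows held it, against 34.6% of all windows. The element core was found in 6 of 15 genes called higher and in 9 of 21 not called. A match of letters is a description, not a binding site. Upstream bases of 5 genes are shown to set genes that rose beside one that did not, up to the annotated gene start in GENCODE release 29 and with matches in capitals. They are PSMA3 at chr14:58244593-58244830 (plus strand), PSMD12 at chr17:67366628-67366827 (minus strand), PSMD9 at chr12:121888540-121888730 (plus strand), PSMC6 at chr14:52706950-52707171 (plus strand) and PSMB3 at chr17:38752491-38752735 (plus strand). PSMA3 holds NF-Y boxes only, PSMD12 the element core only and PSMD9 more than 1 core. PSMC6, with the largest rise before the GC correction, holds neither. PSMB3, which did not pass the test, holds both.
PSMA3: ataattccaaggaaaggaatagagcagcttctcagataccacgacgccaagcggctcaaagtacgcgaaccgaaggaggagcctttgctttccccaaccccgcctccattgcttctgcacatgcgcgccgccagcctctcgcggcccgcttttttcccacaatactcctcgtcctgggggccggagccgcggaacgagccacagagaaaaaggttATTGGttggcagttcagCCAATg
PSMD12: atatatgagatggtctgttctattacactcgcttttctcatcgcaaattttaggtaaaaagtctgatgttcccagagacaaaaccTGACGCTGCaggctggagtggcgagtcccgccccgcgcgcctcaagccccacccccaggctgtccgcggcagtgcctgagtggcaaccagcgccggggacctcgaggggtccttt
PSMD9: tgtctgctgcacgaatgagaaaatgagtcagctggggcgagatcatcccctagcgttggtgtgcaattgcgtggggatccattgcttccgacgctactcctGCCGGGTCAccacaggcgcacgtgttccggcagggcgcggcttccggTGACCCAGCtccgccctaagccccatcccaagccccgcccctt
PSMC6: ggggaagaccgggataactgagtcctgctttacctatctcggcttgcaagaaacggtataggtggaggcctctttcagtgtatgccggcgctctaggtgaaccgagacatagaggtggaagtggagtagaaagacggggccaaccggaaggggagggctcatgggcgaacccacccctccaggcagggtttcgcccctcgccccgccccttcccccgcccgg
PSMB3: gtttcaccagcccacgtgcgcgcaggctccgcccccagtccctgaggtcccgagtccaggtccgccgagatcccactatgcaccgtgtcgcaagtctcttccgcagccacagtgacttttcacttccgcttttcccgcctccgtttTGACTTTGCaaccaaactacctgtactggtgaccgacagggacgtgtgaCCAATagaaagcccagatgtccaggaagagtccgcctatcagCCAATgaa

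The levels of the 43 genes, which include assembly chaperones, spanned 63.8-fold. The highest mean over the 6 libraries was that of PSMD2, a scaffold of the base, and the lowest that of PSMG4, an assembly chaperone. The median proteasome gene lay above 90.3% of all genes tested. Within the core particle, control means ran from PSMA3 to PSMB7 (414.1 FPKM), a 9.63-fold range, although its subunits enter it in equal numbers. The order of the genes was nearly the same in both groups (Spearman's rho 0.97 between group means across the 43 genes, which share the libraries). Within the ATPase ring the highest mean was 3.28 times the lowest in shControl and 2.14 times in shTRMT6, where PSMC6, the lowest, had risen. FPKM is per length, but levels of different genes can be set beside each other only roughly. The libraries differed in their trend on GC content, and some genes share windows with other genes.

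**Figure D2:**
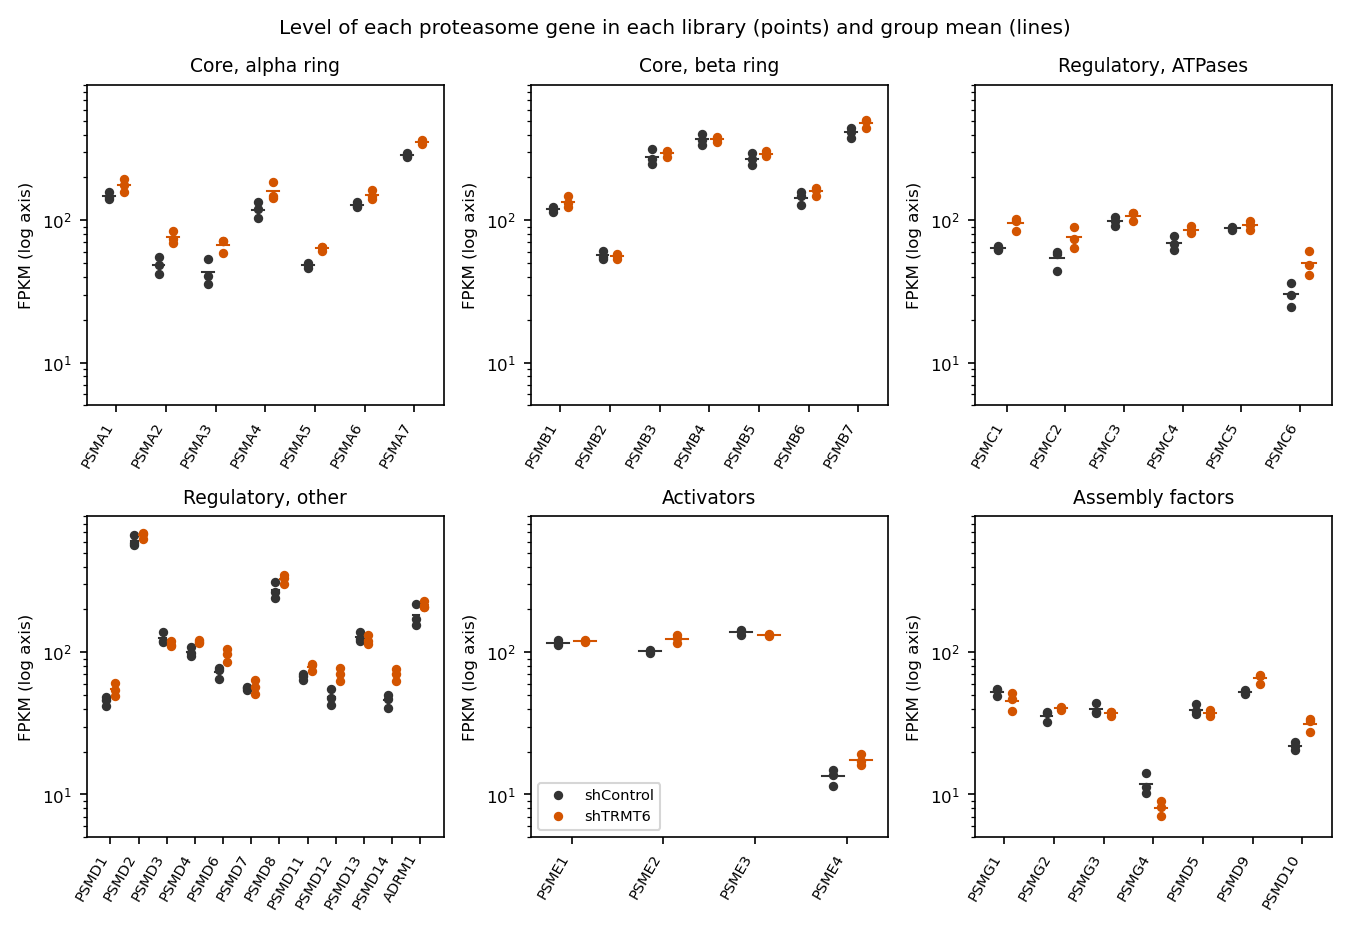
FPKM of each proteasome gene in each library, by role. The y axis is FPKM on a log scale; each point is 1 library, black for shControl and orange for shTRMT6, and the short lines are group means. All 7 alpha genes have shTRMT6 points above every shControl point, while 6 of the 7 beta genes overlap.

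Of the 7 genes of the alpha ring, which gates the core, 5 rose (71.4%, against 19.3% of all genes tested) and none fell (against 16.1%). For all 7 the groups did not overlap and shTRMT6 was higher, against 26.2% of all genes tested. The median log2 fold change of the ring was 0.39. PSMA3 read 35.64, 53.05 and 40.31 in the shControl libraries, against 71.84, 71.25 and 58.76 FPKM in shTRMT6 (1.56-fold, log2 fold change 0.65, SE 0.14, adjusted p = 0.003). Among its shControl libraries replicate 2 was the highest, still below every shTRMT6 library. PSMA2 read 42.19, 55.36 and 48.26 in the shControl libraries, against 74.28, 83.41 and 69.35 FPKM in shTRMT6 (1.56-fold, 0.63, SE 0.11, adjusted p = 0.00117). For PSMA4 the values were 103.01, 134.2 and 119.36 in the shControl libraries, against 148.65, 186.6 and 144.26 FPKM in shTRMT6 (1.34-fold, 0.42, SE 0.12, adjusted p = 0.0162). Replicate 2 was the highest of its group on either side for these 3 genes except PSMA3 in shTRMT6, where replicates 1 and 2 were close. PSMA5 was tight within groups, at 48.36, 49.7 and 46.47 in the shControl libraries, against 64.8, 64.93 and 60.67 FPKM in shTRMT6 (1.32-fold, 0.39, SE 0.09, adjusted p = 0.00514). PSMA7, the most abundant alpha mRNA, read 280.74, 295.48 and 279.55 in the shControl libraries, against 363.44, 367.41 and 342.04 FPKM in shTRMT6 (1.25-fold, 0.32, SE 0.09, adjusted p = 0.0104). PSMA1 (log2 fold change 0.25, adjusted p = 0.0604) and PSMA6 (0.23, adjusted p = 0.0704) did not pass, and with the replicate block they did (0.00736 and 0.0142). PSMA1 shares 41.8% of its 75-base windows with other genes, foremost AC018523.2, so its count of fragments is uncertain. The PSMA4 call was lost without shControl replicate 1 (at adjusted p = 0.0541), or without shTRMT6 replicate 2 (0.0892), without a filter on low values (0.0683) and after a correction for transcript GC content (0.0524). That correction also ended the PSMA5 call (0.189, and 0.0653 with the block as well), and the PSMA7 call ended without shTRMT6 replicate 1 (0.0591) or 2 (0.0572).

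The beta ring, with the proteolytic sites, had no gene past the threshold, where 19.3% of all genes tested were higher and 16.1% lower. The 7 log2 fold changes ran from -0.015 (PSMB2) to 0.22 (PSMB7), with a median of 0.13 and 95% intervals between -0.22 and 0.43. PSMB5, the chymotrypsin-like subunit that proteasome inhibitors target, read 297.78, 268.27 and 243.06 in the shControl libraries, against 292.37, 306.3 and 284.52 FPKM in shTRMT6 (log2 fold change 0.13, SE 0.10, adjusted p = 0.309). PSMB6, the caspase-like subunit, read 157.77, 146.95 and 127.91 in the shControl libraries, against 167.34, 164.11 and 147.99 FPKM in shTRMT6 (0.15, SE 0.10, adjusted p = 0.261). For either gene the groups overlapped, with shControl replicate 1 the highest control and replicate 3 the lowest library of each group. PSMB7, the trypsin-like subunit, read 447.92, 414.22 and 380.1 in the shControl libraries, against 503.25, 497.58 and 447.93 FPKM in shTRMT6 (0.22, SE 0.09, adjusted p = 0.0829). Its groups were separated by 0.01 FPKM only, and it passed with the replicate block (adjusted p = 0.0125). The others, PSMB1 (0.17), PSMB2 (-0.015), PSMB3 (0.096) and PSMB4 (0.0045), had adjusted p from 0.187 to 0.975. After the GC correction 2 beta genes passed, PSMB6 (0.27, adjusted p = 0.0293) and PSMB7 (0.26, adjusted p = 0.0275), and 4 did with the block as well.

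The alpha and beta rings enter the core in equal number, yet their mRNAs differed in FPKM. The mean log2 level of the alpha genes minus that of the beta genes was -1.28, -0.92 and -0.97 in shControl replicates 1, 2 and 3 and -0.76, -0.70 and -0.78 in shTRMT6. The mean log2 level was thus higher for the beta than for the alpha genes in all 6 libraries. The gap was smaller in every shTRMT6 library, on average by 0.31. What GC content contributes to the gap was not tested. Summed over the ring, the alpha genes went from 820.4 ± 53.7 FPKM (SD, n = 3) to 1052 ± 79.1 FPKM (SD, n = 3), 1.28-fold, without overlap. The beta genes went from 1654 ± 144 FPKM to 1796 ± 93.6 FPKM (SD, n = 3 each), 1.09-fold, with overlap. The alpha transcripts have a median GC content of 40.7% and the beta transcripts 49.9%, and the fold changes of all genes tested fell with GC content (Pearson r = -0.39; genes are not independent replicates). After the GC correction the medians were 0.24 for alpha, with 3 of 7 higher, and 0.20 for beta, with 2 of 7 higher. A difference between the rings was not tested.

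**Figure D3:**
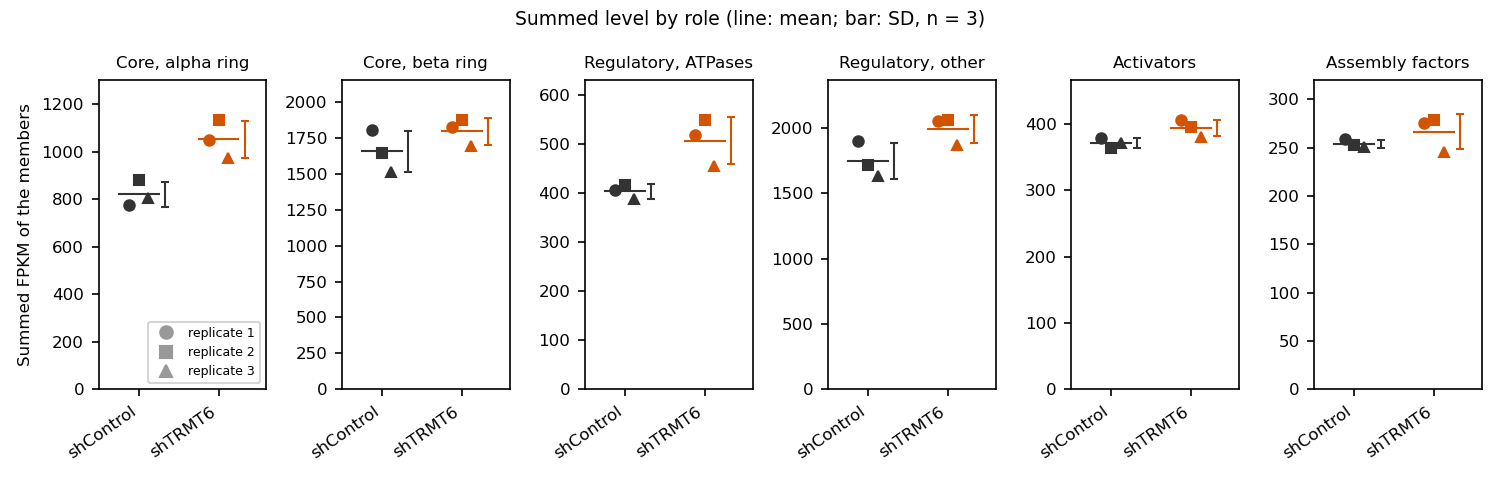
Summed FPKM of the members of each role in each library. The y axes start at 0 and differ between panels; symbols mark replicates 1 to 3, lines the group means and bars the SD (n = 3). The alpha ring, the ATPases and, narrowly, the activators (at least 379.94 against at most 378.08) have all shTRMT6 libraries above all shControl libraries. The beta ring, the other regulatory subunits and the assembly factors overlap.

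In the ATPase ring, which unfolds substrates and feeds them into the core, 4 of 6 genes rose and 0 fell. The share higher was 66.7%, against 19.3% of all genes tested, and the share lower 0%, against 16.1%. The median log2 fold change was 0.40. PSMC6 had the largest rise of the 43 genes before the GC correction. It read 24.52, 36.03 and 29.67 in the shControl libraries, against 48.62, 60.94 and 41.01 FPKM in shTRMT6 (1.67-fold, log2 fold change 0.72, SE 0.15, adjusted p = 0.0031). Even the lowest shTRMT6 library lay above the highest control, and the spread within either group was wide. PSMC1 read 62.38, 65.77 and 62.07 in the shControl libraries, against 98.76, 101.74 and 84.43 FPKM in shTRMT6 (log2 fold change 0.57, SE 0.10, adjusted p = 0.000884). It has the lowest adjusted p of the 43 genes, and 26.95% of its windows also occur in other genes, foremost the processed pseudogene PSMC1P1. That pseudogene is absent from the deposited values. PSMC2 read 44.3, 59.44 and 58.01 in the shControl libraries, against 74.27, 89.12 and 64.03 FPKM in shTRMT6 (1.41-fold, 0.48, SE 0.14, adjusted p = 0.0147). For PSMC4 the values were 77.43, 68.18 and 61.31 in the shControl libraries, against 90.64, 85.01 and 81.36 FPKM in shTRMT6 (1.24-fold, 0.31, SE 0.10, adjusted p = 0.0309). The groups did not overlap for either gene. PSMC3, the most abundant ATPase mRNA, overlapped, at 106.19, 99.17 and 90.86 in the shControl libraries, against 111.66, 112 and 98.4 FPKM in shTRMT6 (0.12, SE 0.10, adjusted p = 0.358), as did PSMC5 (0.069, adjusted p = 0.589). PSMC3 passed after the GC correction (0.26, adjusted p = 0.0332). With that correction the log2 fold change of PSMC1 (0.59) was above that of PSMC6 (0.49), and both passed. The PSMC2 call was lost without shControl replicate 1 (at adjusted p = 0.0523), or without shTRMT6 replicate 2 (0.0718), without a filter (0.0728) and after the GC correction (0.0525). The PSMC4 call ended on removal of shControl replicate 2 (0.0729) or 3 (0.136), of shTRMT6 replicate 1 (0.135) or 2 (0.0784), without a filter (0.0629), with median-of-ratios scaling (0.0622) and without a variance trend (0.0504).

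The other genes of the regulatory particle divide into base subunits, which hold the ring together and bind ubiquitin, and the lid, which carries the deubiquitinase. Of the 8 lid genes 3 rose, PSMD14, PSMD12 and PSMD6, and of the 4 base genes 1 rose, PSMD4. None fell. Of the 12 genes 33.3% were thus higher, against 19.3% of all genes tested, and 0% lower, against 16.1%. The median log2 fold change was 0.25 in either part. PSMD14, the metalloprotease that cuts ubiquitin chains from substrates, read 40.46, 50.2 and 47.13 in the shControl libraries, against 70.82, 76.4 and 62.36 FPKM in shTRMT6 (1.52-fold, log2 fold change 0.60, SE 0.11, adjusted p = 0.00144). PSMD7, its partner in the lid, read 54.47, 56.19 and 56.99 in the shControl libraries, against 56.65, 63.27 and 51.16 FPKM in shTRMT6 (0.024, SE 0.10, adjusted p = 0.876). The PSMD14 libraries thus separated by group and those of PSMD7 overlapped; a difference between the partners was not tested. PSMD12, a scaffold subunit of the lid, read 42.74, 55.51 and 47.67 in the shControl libraries, against 70.32, 77.99 and 62.61 FPKM in shTRMT6 (1.45-fold, 0.52, SE 0.12, adjusted p = 0.00404). PSMD6, another lid subunit, read 65.03, 75.01 and 77.71 in the shControl libraries, against 97.22, 105.34 and 85.04 FPKM in shTRMT6 (1.32-fold, 0.40, SE 0.11, adjusted p = 0.0122). PSMD4, a ubiquitin receptor, read 108.41, 98.19 and 94.13 in the shControl libraries, against 122.33, 118.7 and 116.05 FPKM in shTRMT6 (1.19-fold, 0.25, SE 0.09, adjusted p = 0.0491), just past the threshold. PSMD2 was the most abundant of the 43 mRNAs, at 668.69, 584.5 and 564.93 in the shControl libraries, against 678.92, 691.32 and 628.38 FPKM in shTRMT6, with overlap (0.14, SE 0.09, adjusted p = 0.269).

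Among the regulatory genes that did not pass, PSMD1 (log2 fold change 0.27, adjusted p = 0.0646), PSMD8 (0.28, 0.0591), PSMD11 (0.22, 0.0756) and the ubiquitin receptor ADRM1 (0.26, 0.0963) were positive and passed with the replicate block (0.0111, 0.00245, 0.0211 and 0.00723). With the block, 8 of these 12 genes were higher. The lid subunits PSMD3 (-0.14, adjusted p = 0.259) and PSMD13 (-0.065, adjusted p = 0.634) were the regulatory genes below 0. The PSMD6 call ended without shTRMT6 replicate 1 (adjusted p = 0.0515) or 2 (0.0673) and after the GC correction (0.1, and 0.0524 with the block). The PSMD4 call ended on leaving out any library except shControl replicate 1, with adjusted p from 0.0547 (without shTRMT6 replicate 3) to 0.174 (without shTRMT6 replicate 1). It also ended without a filter (0.0502), with median-of-ratios scaling (0.106) and without a variance trend (0.0797), and 11.6% of its windows occur in other genes, foremost the pseudogene PIPSL. The GC correction brought PSMD2 (0.26, adjusted p = 0.022), PSMD8 (0.41, 0.00557), PSMD11 (0.22, 0.0447) and ADRM1 (0.42, 0.00258) past the threshold, so that 7 of 12 were higher.

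Of the 4 activator genes 2 rose (50%, against 19.3% of all genes tested), PSME2 and PSME4, and none fell (against 16.1%). PSME1 and PSME2 encode the interferon-inducible cap of the core and lie 4394 bases apart on chromosome 14. PSME2 read 104.08, 99.28 and 102.06 in the shControl libraries, against 131.3, 124.98 and 116.02 FPKM in shTRMT6 (1.22-fold, log2 fold change 0.28, SE 0.09, adjusted p = 0.0263). Its partner PSME1 overlapped between groups, at 121.9, 116.48 and 112.31 in the shControl libraries, against 121.55, 119.26 and 117.22 FPKM in shTRMT6 (0.030, SE 0.09, adjusted p = 0.813). PSME4, a large nuclear activator known for degrading acetylated histones, read 11.56, 14.87 and 13.78 in the shControl libraries, against 17.13, 19.1 and 16.01 FPKM in shTRMT6 (0.36, SE 0.12, adjusted p = 0.0308). PSME3, the other nuclear cap and the most abundant of the 4, read 140.54, 132.38 and 142.7 in the shControl libraries, against 134.91, 131.41 and 130.69 FPKM in shTRMT6 (-0.065, SE 0.09, adjusted p = 0.585). Neither call was firm: the PSME2 call ended on removal of shControl replicate 2 (0.0957) or 3 (0.0627), of shTRMT6 replicate 1 (0.141) or 2 (0.0921) and with median-of-ratios scaling (0.0535). The PSME4 call ended on removal of shControl replicate 1 (0.0718) or 3 (0.0531), of shTRMT6 replicate 1 (0.0821) or 2 (0.134), without a filter (0.0728) and after the GC correction (0.122, and 0.0852 with the block).

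Of the 7 assembly factors 2 were higher (28.6%, against 19.3% of all genes tested), 1 was lower (14.3%, against 16.1%) and 4 did not pass. PSMG1 and PSMG2, and PSMG3 and PSMG4, form the chaperone pairs that build the alpha ring, and PSMD5, PSMD9 and PSMD10 help to assemble the ATPase ring. PSMG4 was the only one of the 43 genes that fell. It read 10.27, 11.28 and 14.05 in the shControl libraries, against 8.96, 8.18 and 7.11 FPKM in shTRMT6, 1.47-fold lower (log2 fold change -0.50, SE 0.13, adjusted p = 0.0106), and the call ended without shControl replicate 3 (0.057), the highest control. Its partner PSMG3 overlapped between groups, at 39.8 ± 3.69 FPKM in shControl and 37.3 ± 1.22 FPKM in shTRMT6 (SD, n = 3 each; -0.089, adjusted p = 0.512). PSMG1 (-0.21, adjusted p = 0.17) and PSMG2 (0.17, adjusted p = 0.186) did not pass, and PSMG2 passed after the GC correction (0.26, adjusted p = 0.0282). PSMD10, also known as the oncoprotein gankyrin, read 20.54, 22.05 and 23.34 in the shControl libraries, against 32.86, 34.15 and 27.45 FPKM in shTRMT6 (1.43-fold, 0.50, SE 0.11, adjusted p = 0.00399). PSMD9 read 54.33, 50.72 and 52.19 in the shControl libraries, against 69.64, 68.49 and 59.55 FPKM in shTRMT6 (1.26-fold, 0.32, SE 0.10, adjusted p = 0.0201). The groups did not overlap for either gene. PSMD5 averaged 39.5 ± 3.17 and 37.5 ± 1.81 FPKM (SD, n = 3 each; -0.068, adjusted p = 0.62). The PSMD9 call ended on removal of shControl replicate 2 (0.0702) or 3 (0.0511) and of shTRMT6 replicate 1 (0.107) or 2 (0.0873). With the GC correction and the block together PSMG1 (adjusted p = 0.0213), PSMD5 (0.0157) and PSMG4 (0.0301) were called lower.

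Of 7 tested proteasome genes outside the set of 43 (9 listed), 2 rose and none fell (19.3% and 16.1% of all genes tested did). The median log2 fold change of the 7 was 0.081. POMP, the chaperone that matures the beta ring, read 37.49, 47.2 and 35.45 in the shControl libraries, against 61.81, 68.19 and 57.37 FPKM in shTRMT6 (1.56-fold, log2 fold change 0.64, SE 0.12, adjusted p = 0.0014). SEM1, the smallest lid subunit, read 41.69, 62.79 and 62.8 in the shControl libraries, against 83.34, 89.96 and 75.36 FPKM in shTRMT6 (1.49-fold, 0.58, SE 0.14, adjusted p = 0.00684), a call that ended without a filter on low values (0.0523). The groups were separate for either gene. After the GC correction both passed with smaller log2 fold changes, 0.37 for POMP and 0.30 for SEM1. The immunoproteasome subunits PSMB8 (0.15, adjusted p = 0.279), PSMB9 (0.080, 0.617) and PSMB10 (0.081, 0.598) did not pass, and the tissue-restricted PSMA8 and PSMB11 were listed at 0 in every library. With the GC correction PSMB8 passed (0.26, adjusted p = 0.0368).

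Of 13 enzymes, ubiquitin receptors and other factors that bind the proteasome, 5 rose and 1 fell (19.3% and 16.1% of all genes tested did). The median log2 fold change of the 13 was 0.25. TXNL1, a thioredoxin bound to the regulatory particle, read 41.88, 47.04 and 45.43 in the shControl libraries, against 68.16, 68.16 and 62.3 FPKM in shTRMT6 (1.48-fold, 0.55, SE 0.09, adjusted p = 0.000843). USP14, the deubiquitinase that docks on the base, read 34.41, 43.09 and 37.25 in the shControl libraries, against 54.48, 57.84 and 46.3 FPKM in shTRMT6 (1.38-fold, 0.46, SE 0.11, adjusted p = 0.00793). After the GC correction both passed with smaller log2 fold changes, 0.32 for TXNL1 and 0.22 for USP14. That correction ended the calls of the other risers, UCHL5 (adjusted p = 0.119), UBQLN1 (0.257) and ZFAND5 (0.137), and brought AKIRIN2 past the threshold (0.28, adjusted p = 0.03). UBQLN4, the gene that fell (-0.40, adjusted p = 0.00878), was also called lower after the GC correction (-0.26, adjusted p = 0.0195). The UBQLN4 call ended without shTRMT6 replicate 2 (0.0508). Of 12 genes for NFE2L1, its processing and its partners, 1 rose and none fell (19.3% and 16.1% of all genes tested did), with a median of 0.046. NFE2L1 itself read 81.41, 78.92 and 92.84 in the shControl libraries, against 79.92, 82.08 and 102.82 FPKM in shTRMT6, with overlap (0.058, SE 0.11, adjusted p = 0.716). It is named here outside the rule, as the list's namesake. The riser was NGLY1, the enzyme that removes sugars from NFE2L1, at 6.97, 9.35 and 9.51 in the shControl libraries, against 12.23, 13.96 and 10.09 FPKM in shTRMT6 (1.40-fold, 0.45, SE 0.14, adjusted p = 0.0259). The NGLY1 call was lost after the GC correction (log2 fold change 0.19, adjusted p = 0.13, and 0.12 with the block) and without a filter (0.0944). Leaving out shControl replicate 1 (0.0788), or shTRMT6 replicate 1 (0.0781) or 2 (0.116), also ended it. Among genes for ubiquitin and its activating enzymes, RPS27A, a ubiquitin fused to a ribosomal protein, rose 1.38-fold (log2 fold change 0.46, adjusted p = 0.00255). UBA1, the main activating enzyme, fell 1.26-fold (-0.33, adjusted p = 0.0225), a call lost after the GC correction (-0.18, adjusted p = 0.065), without a filter (0.0522) and without shTRMT6 replicate 1 (0.0697) or 2 (0.0657).

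The fold changes of the 43 genes varied with the GC content of their longest transcript, which was lowest for PSMD14 and highest for ADRM1 (64.2%). The correlation across the genes was -0.49 (Pearson r, 43 genes that share the 6 libraries, given as a description). Over all genes tested, 19.3% were called higher and fold changes also fell with GC content (Pearson r = -0.39), with no shares computed by GC content. Below the median GC content of 48.2%, 11 of 21 proteasome genes rose (median log2 fold change 0.36). At or above it, 6 of 22 rose, with a median of 0.14. Single libraries moved with this: shControl replicate 1 was the lowest control for 16 of the 21 genes of lower GC content and the highest for 17 of the 22 of higher GC content. In shTRMT6, replicate 3 was the lowest library for all 21 genes of lower GC content and for 19 of the 22 others. With each library's smooth trend on GC content removed, the correlation was 0.098, 20 of the 43 genes were higher and 1 was lower (20% and 17.8% of all genes tested), and the median log2 fold change was 0.22. The genes were not the same throughout: 12 of the 17 remained, 5 were lost (PSMA4, PSMA5, PSMC2, PSMD6 and PSME4) and 8 were gained. The GC correction with the replicate block gave 26 higher and 3 lower (24.7% and 22.3% of all genes tested).

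**Figure D4:**
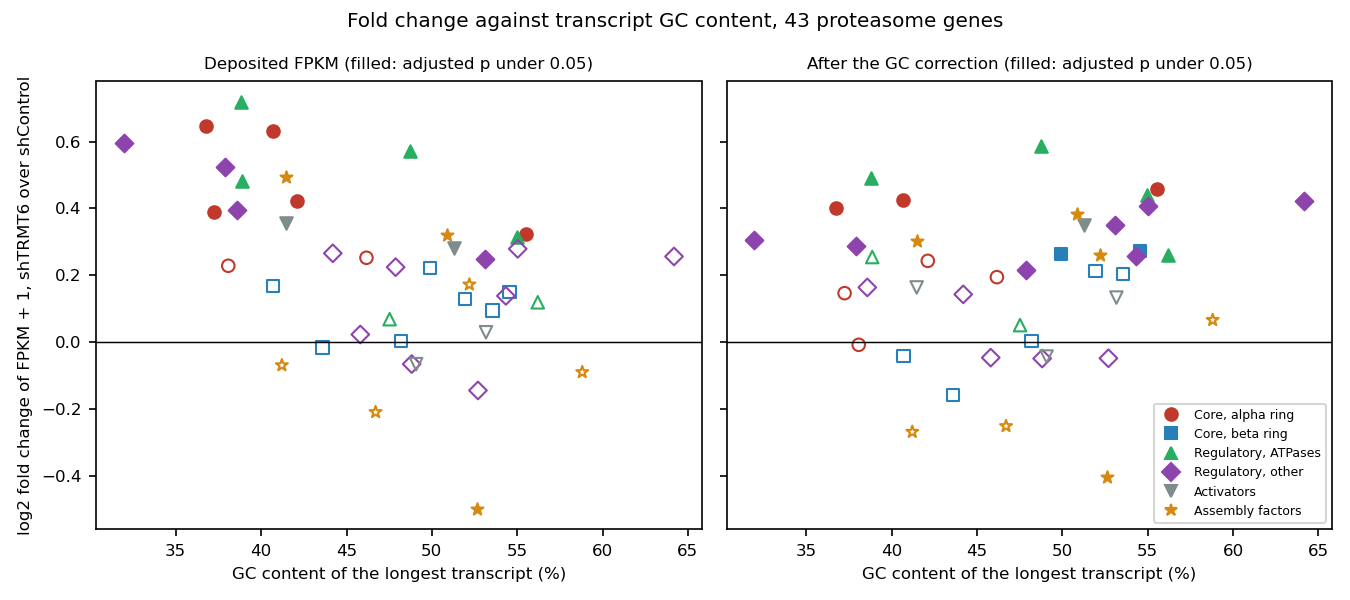
Log2 fold change of the 43 genes against the GC content of the longest transcript (%), before (left) and after (right) removal of each library's GC trend. Symbols mark roles and filled symbols passed the test. The correlation was -0.49 on the left and 0.098 on the right, where 20 genes were higher.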

How the data were processed

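The members, gene lists and tests were chosen with earlier results of these data known. Per the labels, mRNA from TRIzol-extracted total RNA was made into libraries with a NEBNext Ultra kit. The authors deposited 1 FPKM value for each gene in each library (per the file headers). Columns were matched to samples by group and replicate number. The submitters' processing notes list StringTie 1.3.1, RSEM, HISAT2, fastp 0.18.0 and Bowtie2 2.2.8 but not what each did. Genome build, annotation and strand setting: not given in the sources used here. No label says that replicates came from separate cultures; the p-values then reflect only library-to-library spread, possibly technical.

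Symbols came from a gene name table (20257 identifiers) and GENCODE release 29 (30 more), which also gave positions on GRCh38, transcript GC content and shared 75-base windows. Promoters were from RefSeq. Genes averaging 1 FPKM or more entered limma 3.58.1 (R 4.3.3) as log2(FPKM + 1) with a prior that follows the variance trend; tests were two-sided and Benjamini-Hochberg adjusted at 0.05. Fold changes on this scale understate those of low genes, so ratios of mean FPKM are given as well. Only FPKM values were used, to which a count model cannot be applied; the depth estimates assume annotated lengths. The model was checked on simulated data. Deviations from group means correlated at 0.21, 0.36 and 0.17 between libraries of the same replicate number, and from -0.29 to 0.094 otherwise. The numbers were therefore taken as pairs, from the data and not from the labels. A fit that blocks on the number (replicate block) served as an alternative. With 3 libraries per group these correlations cannot establish pairing, so calls made only with the block rest on that assumption. Values in every library are given for up to 4 called genes per role with the largest change, the most abundant gene of each role, PSMB5 to PSMB7 and TRMT6; for other lists, for up to 2 genes. PSMD7, PSME1 and NFE2L1 were added after their values were seen. For the list of ubiquitin genes and activating enzymes, 1 result and the list's counts are not reported here.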

Additional observations from a re-analysis of the deposited data

How the results depend on the processing

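Of the 43 genes, none that was called changed direction in any of the 16 alternatives. With the replicate block, the count called higher was 24 of 43 (17 in the unblocked fit, all of which remained), while the share of all genes called higher went from 19.3% to 25.5%, and beyond the 7 genes gained it changed no other call; the core particle had 8 against 5, the beta ring 1 against 0 and the regulatory subunits other than ATPases 8 against 4. The GC correction gave 3 higher in the alpha ring (median 0.24), 2 in the beta ring, 7 in the other regulatory subunits and 1 activator, and moved the assembly factors' median from -0.068 to 0.067. With the GC correction and the replicate block, 26 genes were higher and 3 lower; the core had 9, the beta ring 4, the other regulatory subunits 7 and the assembly factors 3 lower, with medians of 0.24 (alpha) and 0.067 (assembly). Without a filter on low values 12 genes were higher, of them 5 of the regulatory particle, 2 ATPases and 1 activator. Median-of-ratios scaling left 14 higher and 1 activator, with medians of 0.19 (core) and 0.12 (activators). Under both settings the count called higher over all genes tested also fell, from 2042 in the unblocked fit. The falls are thus not particular to the proteasome genes, and no share of all genes tested was computed for either setting.

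Leaving out 1 library gave 8 to 21 higher and 0 to 1 lower. By role, the counts higher ran from 3 to 7 (core, and alpha ring alone), 0 to 1 (beta), 4 to 10 (regulatory particle), 2 to 4 (ATPases), 2 to 7 (other regulatory), 0 to 2 (activators) and 1 to 2 (assembly, with 0 to 1 lower). Medians ran from 0.18 to 0.28 (core), 0.31 to 0.42 (alpha), 0.058 (without shControl replicate 3) to 0.20 (without shControl replicate 1; beta), 0.19 to 0.28 (other regulatory) and -0.11 to -0.0063 (assembly). Over all genes tested, 1284 to 2073 were higher and 1112 to 1724 lower. With a library left out the other libraries are assumed to vary alike.

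Signs changed for genes that were not called. With the GC correction, alone and with the replicate block, PSMA6 read -0.0071, PSMB1 -0.040, PSMD7 -0.045 and PSMG3 0.067. Median-of-ratios scaling gave PSMB4 -0.034, PSMD7 -0.014 and PSME1 -0.0078, and quantile normalization PSMB2 0.0050, PSMB4 -0.043 and PSMD2 -0.038. With a library left out, PSMB2 ran from -0.052 to 0.037, PSMB4 from -0.058 to 0.068 and PSMD7 from -0.053 to 0.098. The cause was not tested. What depth limits was not tested for single genes.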

Other observations

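The 43 genes lie on 17 chromosomes (positions from GENCODE release 29), and chromosomes 14 and 17 each carry 7 of them. On chromosome 14, 4 of the 7 rose: PSMA3, PSMC1, PSMC6 and PSME2, while PSMA6, PSMB5 and PSME1 did not pass. The median log2 fold change of the 7 was 0.28, and 24.0% of the 354 tested genes on that chromosome were called higher. On chromosome 17, PSMD12 alone of 7 rose (PSMB3, PSMB6, PSMC5, PSMD3, PSMD11 and PSME3 did not pass). The median was 0.096, and 13.6% of the 663 tested genes there were called higher.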
